A study of Mus musculus with 4 samples.

Results

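Genes that are typical of myeloid cells and platelets were followed in arrays of mouse T helper lymphocytes (CD4+) grown in culture. The set holds 10 genes, Lyz1, Lyz2, Chil3, S100a8, S100a9, Ctss, Pf4, Fcer1g, Tyrobp and Cd68, taken by name as every probe set whose platform annotation gives only that gene. They had 12 probe sets among the 45037 that are not array controls, with 3 for Lyz1 and 1 for each other gene, and the annotation names 18193 genes in all. The genes were selected on the signals of these same 4 arrays, with both the difference between the groups and the spread of the TGFb1 arrays known, so their differences between groups are given as a description, without a test. One further probe set shared by Chil3 and its neighbour Chil4 was left out.

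Naive CD4+ cells of mouse spleen and of mesenteric and peripheral lymph nodes were kept for 7 days in RPMI medium with 10% serum and concanavalin A at 2.5 ug/ml, a plant lectin that activates T cells. In the first group (2 arrays) the medium held human TGFb1 at 1 ng/ml, a cytokine that steers naive cells towards a regulatory state. In the second (2 arrays) it held that TGFb1 dose plus the steroid hormone progesterone at 2000 ng/ml. There was no group without TGFb1 or without concanavalin A, the labels give no strain, age or sex, and they do not say whether replicates were separate animals or cultures, so the spread between arrays may be technical.

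Lysozymes digest bacterial cell walls and are made in bulk by macrophages and granulocytes. S100A8 and S100A9 pair into calprotectin, the main cytosolic protein of neutrophils, and Chil3 encodes Ym1, a chitinase-like secreted protein of macrophages and neutrophils. CTSS is a lysosomal protease that trims the invariant chain of MHC class II molecules, CD68 is a lysosomal membrane glycoprotein, and PF4 is a chemokine stored in platelet granules. Fcer1g and Tyrobp encode small adaptors with an ITAM, the motif that passes receptor signals to the kinase SYK, and natural killer cells, mast cells and some T cells use them as well as myeloid cells. Purified T cell cultures can keep a few cells of other lineages, and in RNA from a whole culture fewer cells of a type and less RNA per cell cannot be told apart.

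Lyz1 and Lyz2 lie next to each other on chromosome 10, and their promoters are compared here. The 250 bases before each start site are shown, from RefSeq (GRCm38.p6, both on the minus strand, chr10:117292869-117293118 and chr10:117282273-117282522), with capitals for the unbroken run of 50 identical bases that ends at the start site.
Lyz1: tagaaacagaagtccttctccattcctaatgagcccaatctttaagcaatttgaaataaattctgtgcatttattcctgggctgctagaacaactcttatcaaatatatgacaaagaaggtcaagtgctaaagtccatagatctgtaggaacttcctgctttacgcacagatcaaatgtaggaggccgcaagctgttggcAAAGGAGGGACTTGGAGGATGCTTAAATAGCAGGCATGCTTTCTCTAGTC
Lyz2: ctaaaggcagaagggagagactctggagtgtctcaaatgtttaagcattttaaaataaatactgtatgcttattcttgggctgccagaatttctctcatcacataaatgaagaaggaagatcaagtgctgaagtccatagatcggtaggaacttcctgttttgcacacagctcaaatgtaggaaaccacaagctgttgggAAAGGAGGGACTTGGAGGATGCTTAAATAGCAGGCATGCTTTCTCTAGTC
Read position by position without gaps, the pair had the same base at 152 of the 250 positions (60.8%). Both brighter Lyz1 probe sets carry the suffix _x_at, which marks probes that can match other transcripts, and the S100a8 probe set carries _s_at, which marks probes shared between similar transcripts. Probe and transcript sequences were not compared, so how far the Lyz1 probe sets also read Lyz2 was not tested.

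The promoters of Chil3, one of the genes furthest apart between the groups, and of Pf4, the platelet gene, are shown for the motifs they hold. The core bound by the myeloid factor PU.1 was searched as GAGGAA. A site for the C/EBP family of myeloid factors was searched as TTGCNNAA. A site for GATA factors, which act in megakaryocytes and mast cells, was searched as AGATAA. Capitals mark matches on either strand in the 250 bases before the start (GRCm38.p6, chr3:106167565-106167814 on the minus strand and chr5:90772185-90772434 on the plus strand).
Chil3: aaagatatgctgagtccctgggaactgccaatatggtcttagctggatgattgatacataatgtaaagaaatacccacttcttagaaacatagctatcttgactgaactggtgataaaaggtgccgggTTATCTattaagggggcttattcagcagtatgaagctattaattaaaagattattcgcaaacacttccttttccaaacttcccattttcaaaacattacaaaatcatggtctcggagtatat
Pf4: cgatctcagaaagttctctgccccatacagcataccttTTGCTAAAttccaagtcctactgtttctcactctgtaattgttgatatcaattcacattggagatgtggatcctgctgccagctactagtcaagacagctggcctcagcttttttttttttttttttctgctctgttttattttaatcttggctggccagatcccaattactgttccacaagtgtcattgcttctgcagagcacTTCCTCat
RefSeq gave a promoter for 9 of the 10 genes. The PU.1 core was found in 4 of the 9 (S100a8, Ctss, Pf4 and Cd68), against 23.3% of all 32851 promoters of this length. The C/EBP letters were found in 4 of the 9 (S100a9, Pf4, Lyz1 and Cd68), against 9.56%, and AGATAA in 2 of the 9 (S100a9 and Chil3), against 9.99%. None of the 3 was found in the Lyz2 promoter, and no matches overlapped another motif. These are matches of letters, not measured binding.

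The arrays read as T cells first. Cd3e, a chain of the T cell receptor complex, had quantile-normalised signals of 2769 and 2958 with TGFb1 alone and 3177 and 3017 with progesterone, and Cd4 had 1961 and 2290 against 1681 and 1670. Cd8a, of the killer class, lay between 38.9 and 53.8 in the 4 arrays. Sex-linked transcripts separated the groups as well. Xist, which coats the inactive X chromosome, rose by 5.58 ± 0.17 (SE) with adjusted p = 1.6e-05, and the Y-linked gene Eif2s3y fell by 5.18 ± 0.18 with adjusted p = 1.8e-05 (limma), as did Kdm5d (-3.77 ± 0.21, adjusted p = 0.000273). What goes with that difference and what goes with progesterone cannot be told apart in any result given here. The ratio of the 3' to the 5' control signal of Actb, a measure of RNA integrity, was 1.25 and 1.23 with TGFb1 alone and 1.29 and 1.32 with progesterone, and for Gapdh it lay between 0.69 and 0.75, and the part of this in the results was not tested. Trimmed mean signals ran from 107.7 to 154.5, so arrays were quantile normalised for every difference. A difference is the progesterone mean less the TGFb1 mean of log2(signal + 16), a scale that shrinks the differences of dim genes. The value after ± is limma's standard error, with n = 2 in each group. Signals of single genes in single arrays are given as deposited from here on. Summed signals of gene lists are given after quantile normalisation, with the deposited sums beside them where the order of the groups differs.

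Over the 10 genes, each taken by its brightest probe set, all group means were higher with progesterone, by 0.18 to 4.42 and with a median of 1.89. The median of all 22518 probe sets above the level filter was 0.03. In 8 of the 10 genes both progesterone arrays lay above both TGFb1 arrays, as was so for 29.3% of probe sets above the filter and 23.4% of all, and by probe set this held for 10 of 12. The exceptions were S100a9 and Fcer1g. The size of the difference rested on which TGFb1 array it was taken from: without TGFb1 replicate 2 the median over the 10 genes was 1.06, and without TGFb1 replicate 1 it was 2.95.

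**Figure D1:**
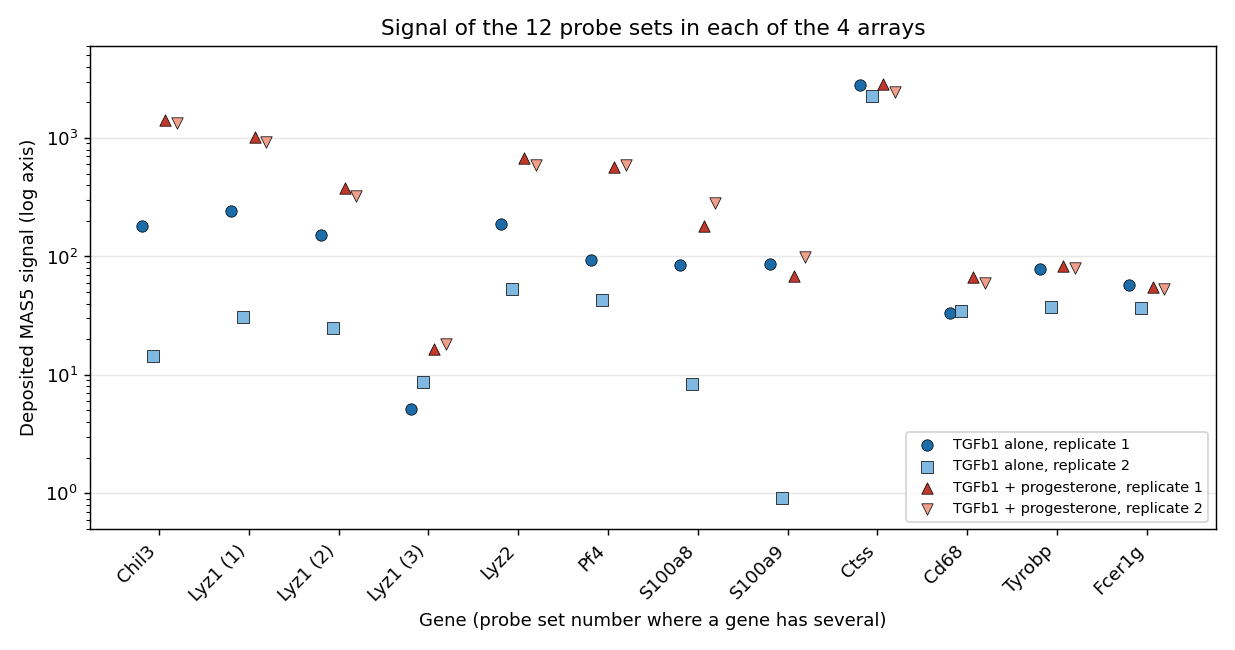
Deposited signal (log axis) of each of the 12 probe sets in the 4 arrays, blue for TGFb1 alone and red for TGFb1 with progesterone. TGFb1 replicate 2 (square) is the lowest of the 4 points in 10 of the 12 probe sets, and no pair of progesterone points is as far apart as the S100a8 pair (180.9 and 283.3).

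Chil3 stood furthest apart. Its signals were 182.3 and 14.4 with TGFb1 alone and 1409 and 1336 with progesterone. The groups did not overlap, but the TGFb1 arrays were themselves far from each other, with replicate 2 at 7.92% of replicate 1. The difference was 4.42 ± 0.66, or 21.4-fold, and it was 3.14 without TGFb1 replicate 2.

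The lysozyme probe sets followed the same order. The Lyz2 probe set had signals of 189.0 and 53.5 with TGFb1 alone and 675.7 and 587.7 with progesterone, a difference of 2.69 ± 0.39. The brightest Lyz1 probe set had 244.2 and 30.8 against 1026 and 927.5, a difference of 3.43 ± 0.59. Its second probe set had 151.4 and 24.97 against 377.5 and 322.5, a difference of 2.33 ± 0.50. In all 3 of these probe sets TGFb1 replicate 2 was the lowest array and TGFb1 replicate 1 lay between it and the progesterone arrays. The third Lyz1 probe set, below the level filter, was dim in every array, at 5.10 and 8.66 against 16.6 and 18.2, and there TGFb1 replicate 1 was the lower of its pair. Its difference was 0.44, so the probe sets annotated to Lyz1 did not give a single value for the gene.

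Pf4 was the gene with the large difference and the smaller spread. Its signals were 92.5 and 42.6 with TGFb1 alone and 570.5 and 592.4 with progesterone. Both progesterone arrays were well clear of both controls. The difference was 3.12 ± 0.26, or 8.72-fold, and it was 2.70 and 3.44 when TGFb1 replicate 2 or replicate 1 was left out.

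The calprotectin genes were both lowest in TGFb1 replicate 2 and highest in progesterone replicate 2, and S100a8 was the member nearest to S100a9 in profile. S100a8 had signals of 85.0 and 8.44 with TGFb1 alone and 180.9 and 283.3 with progesterone, a difference of 2.44 ± 0.57, and its groups did not overlap. S100a9, which lies beside S100a8 on chromosome 3, had 85.9 and 0.916 against 68.8 and 99.5. Here TGFb1 replicate 1 lay between both progesterone arrays and only TGFb1 replicate 2 was low. The difference of 1.34 ± 0.70 became 0.09 without TGFb1 replicate 2 and 2.57 without TGFb1 replicate 1, so it rests on that array. These genes also had the widest gaps between the progesterone arrays among the 12 probe sets, 0.97 for S100a8 and 0.77 for S100a9, with replicate 2 the higher.

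Of the lysosomal genes, Ctss was bright in every array, at 2802 and 2273 with TGFb1 alone and 2872 and 2454 with progesterone. The deposited values overlap between the groups, and after quantile normalisation they did not. The difference was 0.51 ± 0.09 after quantile normalisation, 0.07 without any scaling and -0.05 under median centring, so its direction depends on scaling. Cd68 had 33.2 and 34.5 against 67.6 and 60.0, with no overlap in the deposited values. It was the one gene whose brightest probe set was not lowest in TGFb1 replicate 2. The difference was 0.66 ± 0.20, between 0.55 and 0.90 under the 3 other scalings.

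The ITAM adaptors showed small differences. Tyrobp had signals of 79.0 and 37.5 with TGFb1 alone and 83.5 and 80.5 with progesterone, a difference of 0.53 ± 0.27 that was 0.16 without TGFb1 replicate 2. Fcer1g had 57.3 and 36.7 against 55.2 and 53.1, a difference of 0.18 ± 0.23 that was -0.02 without TGFb1 replicate 2. For both adaptors TGFb1 replicate 1 was about as high as the progesterone arrays, and for Fcer1g the groups overlap.

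**Figure D2:**
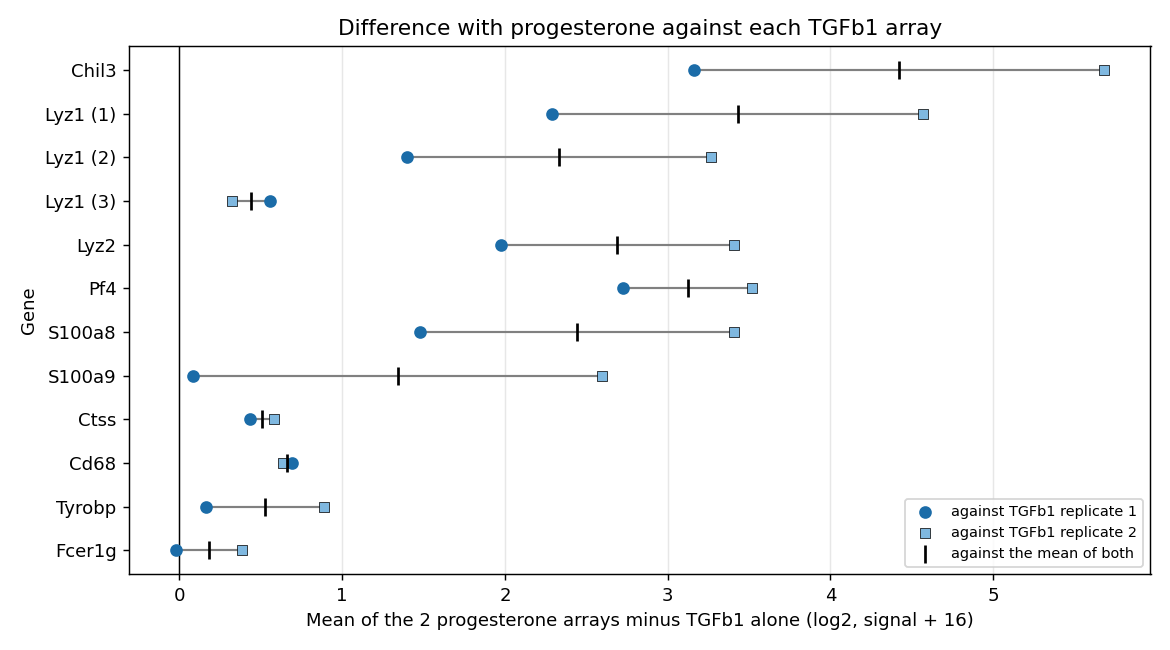
Mean of the progesterone arrays minus each TGFb1 array (circle, replicate 1; square, replicate 2) and minus the mean of both (bar), log2 scale, for the 12 probe sets. For S100a9 the points sit at 0.09 and 2.60, while for Cd68 and Ctss they nearly coincide.

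The spread between the TGFb1 arrays was the second feature of these genes. Replicate 1 was higher than replicate 2 in 9 of the 10 genes, and at least 2-fold higher in 5 of them (Chil3, S100a9, Lyz1, S100a8 and Lyz2). Among all probe sets above the filter 49.0% were higher in replicate 1 and 0.595% were at least 2-fold higher. The median absolute difference between the TGFb1 arrays was 1.11 over the 10 genes and 0.18 over the probe sets above the filter. Between the progesterone arrays it was 0.23 over the 10 genes and 0.16 over those probe sets, and none of the 10 genes differed by 2-fold there, as 1.04% of the probe sets above the filter did. TGFb1 replicate 2 was the lowest of the 4 arrays in 9 of the 10 genes, as in 24.6% of the probe sets above the filter. With 2 arrays in a group, this spread was not tested.

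**Figure D3:**
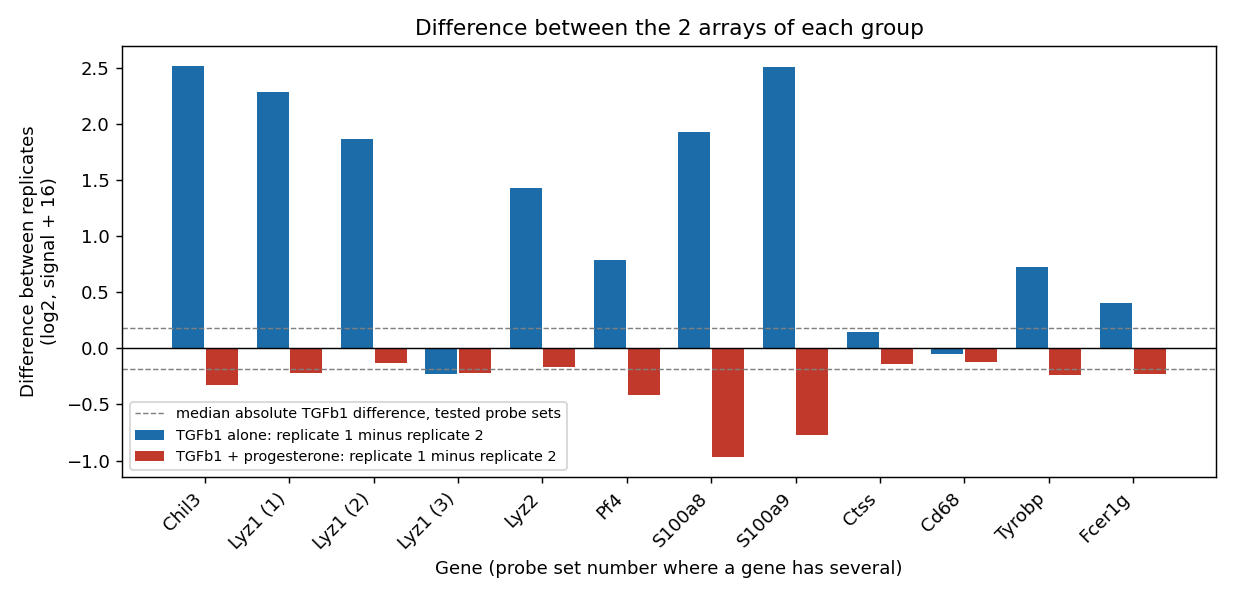
Replicate 1 minus replicate 2 on the log2(signal + 16) scale for TGFb1 alone (blue) and TGFb1 with progesterone (red), with dashed lines at the median absolute TGFb1 difference of the probe sets above the level filter (0.18). The blue bars reach 2.52 for Chil3 and 2.51 for S100a9, whereas no red bar goes beyond 0.97 in size.

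The 10 genes were also set beside each other by profile over the 4 arrays. Distances were taken between log2 profiles centred on their own means but not scaled. They therefore follow the size of a difference as well as the order of the arrays. Ctss and Cd68, both with small differences, were the nearest pair (0.21), and Fcer1g and Tyrobp were 0.41 apart. Lyz2 lay nearest to Pf4 (0.65) and then to S100a8 (0.71), while S100a8 and S100a9 were 1.18 apart. Outside the set, the genes nearest to Chil3 were Xist by one of its probe sets (2.04), the MHC class II gene H2-Ea (2.28) and the transcription factor gene Maf (2.30). Nearest to Lyz1 were H2-Ea (1.40), the beta-glucan receptor gene Clec7a (1.47) and Maf (1.54). H2-Ea had signals of 26.8 and 8.35 with TGFb1 alone and 173.8 and 144.0 with progesterone, the same order of arrays as Lyz1. These distances describe 4 arrays and 19290 probe sets of named genes outside the set, all above the level filter. That filter takes the mean of all 4 arrays. H2-Ea, Clec7a and this Xist probe set had TGFb1 means of 5.07, 4.98 and 4.28, under its level of 5.32. They were candidates only because their progesterone arrays were high. As Chil3 and Lyz1 have large differences and profiles were not scaled, their nearest genes were bound to have large differences too.

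Other genes of the same cells were tested as lists, each gene by its brightest probe set, with p-values adjusted over all 22518 probe sets. In that test 2.36% of probe sets rose and 3.62% fell. The share of all probe sets at an unadjusted p under 0.05 was not counted. List counts at that threshold therefore have no background beside them and are description only. The macrophage and platelet lists each had 2 genes past the threshold, and the neutrophil list had none. The filter takes the mean of all 4 arrays, and Clec7a, Arg1, Ppbp, Ccl22 and Xist had a TGFb1 mean under it, so they were tested only because their progesterone arrays were high. Without the filter the adjusted p was 0.0503 for Clec7a, 0.135 for Arg1, 0.120 for Ppbp and 0.0550 for Ccl22, none of which then passes, and Ccl9 (0.0632), Npc2 (0.114) and Fscn1 (0.144) did not pass either. The brightest probe sets of the 10 genes all had a TGFb1 mean above the filter.

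Of 24 monocyte and macrophage genes, 23 had a probe set and 11 passed the level filter, of which 2 passed as higher and none as lower (4 at an unadjusted p under 0.05, of which 3 were higher). By array order alone, 12 of the 23 measured were higher without overlap and 4 were lower. Of all 45037 probe sets, 23.4% were higher and 9408 were lower in this way. Such shares were not particular to this list. Those higher were 9 of 17 lysosomal, 7 of 13 mast cell, 5 of 9 B cell and 5 of 11 dendritic cell genes. They were also 8 of 18 receptors and partners of the ITAM adaptors, but 4 of 15 neutrophil, 3 of 11 alternative activation and 1 of 7 natural killer genes. The macrophage list median was 0.24 over those tested and 0.29 over those measured. Clec7a had signals of 26.6 and 5.64 with TGFb1 alone and 123.7 and 133.4 with progesterone, and its difference was 2.29 ± 0.33 (adjusted p = 0.00793, limma). The chemokine gene Ccl9 had 61.4 and 27.1 against 150.5 and 149.1 and a difference of 1.62 ± 0.27 (adjusted p = 0.0129). In both, TGFb1 replicate 2 was again the lowest array, and neither passed without progesterone replicate 2 (2.15 and 1.51). Other macrophage markers, picked after their values were seen, went different ways. Itgam had a lower mean, at 71.2 and 19.4 against 21.6 and 13.6 (-0.81 ± 0.38, adjusted p = 0.273, limma), and its deposited values overlap. Its difference was -0.22 without TGFb1 replicate 1 and -1.38 without TGFb1 replicate 2, so its size rests on replicate 1. Cd14, below the filter, was higher, at 14.1 and 3.08 against 36.5 and 25.9 (0.86). Csf1r, the receptor for the growth factor of macrophages, had 43.5 and 64.4 against 49.8 and 72.3 in its brightest probe set. Its differences were 0.17 to 0.94 over its 3 probe sets above the filter. Adgre1, which encodes F4/80, had 28.7 and 17.9 against 41.1 and 47.7. The complement gene C1qa lay between 0.749 and 1.59 in all arrays. Ms4a6c (-0.30 ± 0.14, adjusted p = 0.263) and the chemokine receptor gene Ccr2 (-0.99 ± 0.27, adjusted p = 0.0821), the brightest of the list, did not pass. Among probe sets above the filter, Ms4a6c ran from -0.30 to 0.21 over 2 and Ccr2 from -0.99 to 0.49 over 4. Neither gene kept a single direction. The quantile-normalised sum of the list was 1466 and 1541 with TGFb1 alone and 1541.5 and 1722 with progesterone. As deposited it was 1596 and 1612 against 1618 and 1426, so the groups then overlap. Ms4a6c alone gave 934.5 and 1151 of this against 753.3 and 553.8, so the sums lean on that gene. No listed marker was at exactly 0.

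Genes of alternative activation, the macrophage state in which Chil3 is made, were mostly near the floor. Only 2 of the 11 measured passed the filter. Arg1, which encodes arginase, had signals of 30.4 and 5.73 with TGFb1 alone and 88.6 and 76.3 with progesterone and a difference of 1.64 ± 0.35 (adjusted p = 0.0343, limma). It did not pass without progesterone replicate 1 (1.70) or replicate 2 (1.64), and was 1.07 without TGFb1 replicate 2. The ligand gene Pdcd1lg2 was at 0.39 ± 0.18 (adjusted p = 0.262). Chil4, the neighbour of Chil3, lay between 5.49 and 16.9 in the 4 arrays.

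Of 15 neutrophil genes measured, 4 passed the filter, none rose and none fell by limma, and 1 was higher at an unadjusted p under 0.05. The granule genes Ngp (89.1 and 12.2 against 30.4 and 35.4) and Ctsg (82.9 and 37.0 against 43.8 and 59.4) were the brightest. In both, TGFb1 replicate 1 was the highest array, unlike S100a8. Their differences were -0.19 ± 0.51 (adjusted p = 0.87) and -0.09 ± 0.32 (adjusted p = 0.911). The quantile-normalised sum of the list was 342.4 and 197.0 with TGFb1 alone and 227.1 and 328.9 with progesterone, so the groups overlap, as they do in the deposited sums (336.1 and 182.6 against 270.2 and 305.1). The list's place beside S100a8 and S100a9 was not tested.

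Of 16 platelet and megakaryocyte genes measured, 11 passed the filter, of which 2 passed as higher and none as lower (5 at an unadjusted p under 0.05, all higher), with a median of 0.60. Itga2b, the platelet integrin CD41, had signals of 78.9 and 96.6 with TGFb1 alone and 196.4 and 158.4 with progesterone and rose by 1.06 ± 0.17 (adjusted p = 0.0119, limma). Ppbp, the chemokine gene next to Pf4 on chromosome 5, had 12.6 and 6.79 against 56.1 and 39.7 and a difference of 1.25 ± 0.26 (adjusted p = 0.0305). Ppbp did not pass without TGFb1 replicate 2 (1.06), and without progesterone replicate 1 (1.17) or replicate 2 (1.35) it was under the filter and not tested. Itga2b did not pass without progesterone replicate 1 (1.09) or replicate 2 (1.08), so no platelet gene passed without either progesterone array. By array order alone, 10 of the 16 measured were higher without overlap and none was lower, beside 23.4% higher and 9408 lower of all 45037 probe sets. Itgb3, the partner chain of CD41, was at -0.27 ± 0.28 (adjusted p = 0.614). The median difference between the TGFb1 arrays, replicate 1 minus replicate 2, was -0.27 over the tested platelet genes, 0.34 over macrophage, 0.44 over neutrophil and 0.39 over mast cell genes, against 0.79 for Pf4. It was 0.34 over the tested receptors and partners of the ITAM adaptors and -0.007 over all probe sets above the filter. Over all measured genes it was smaller, at -0.14 for platelet, 0.09 for macrophage, 0.29 for neutrophil and 0.23 for mast cell genes. The platelet list's quantile-normalised sum was 450.5 and 439.8 with TGFb1 alone and 760.9 and 757.3 with progesterone. As deposited it was 450.8 and 428.1 against 835.8 and 668.6, without overlap on either scale.

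Among lysosomal genes, the wider family of Ctss and Cd68, 15 were tested, none rose and 1 fell. That gene was Npc2, a cholesterol carrier of the lysosome, at -0.35 ± 0.06 (adjusted p = 0.0194, limma), with the values -0.39 and -0.27, where it did not pass, without progesterone replicate 1 and replicate 2. It was -0.69 with the values as deposited, where it did not pass. Psap, the other brightest member, was at 0.22 ± 0.09 (adjusted p = 0.213). Of the 15 tested, 1 was higher and 1 lower at an unadjusted p under 0.05 (limma). The list median was 0.10, and its quantile-normalised sum was 19727 and 19720 against 18910 and 19164. Npc2 alone gave 6931 and 6931 of this sum against 5625 and 5235, so the lower sum leans on that gene. As deposited the sum was 23135 and 20992 against 18505 and 14462.

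The receptors and partners of the ITAM adaptors had no member past the limma threshold among 11 tested, with 4 higher and 2 lower at an unadjusted p under 0.05 and a median of 0.24. The brightest were Cd247, the zeta chain of the T cell receptor (-0.28 ± 0.08, adjusted p = 0.0983), and Hcst, a related adaptor (0.30 ± 0.11, adjusted p = 0.185).

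**Figure D4:**
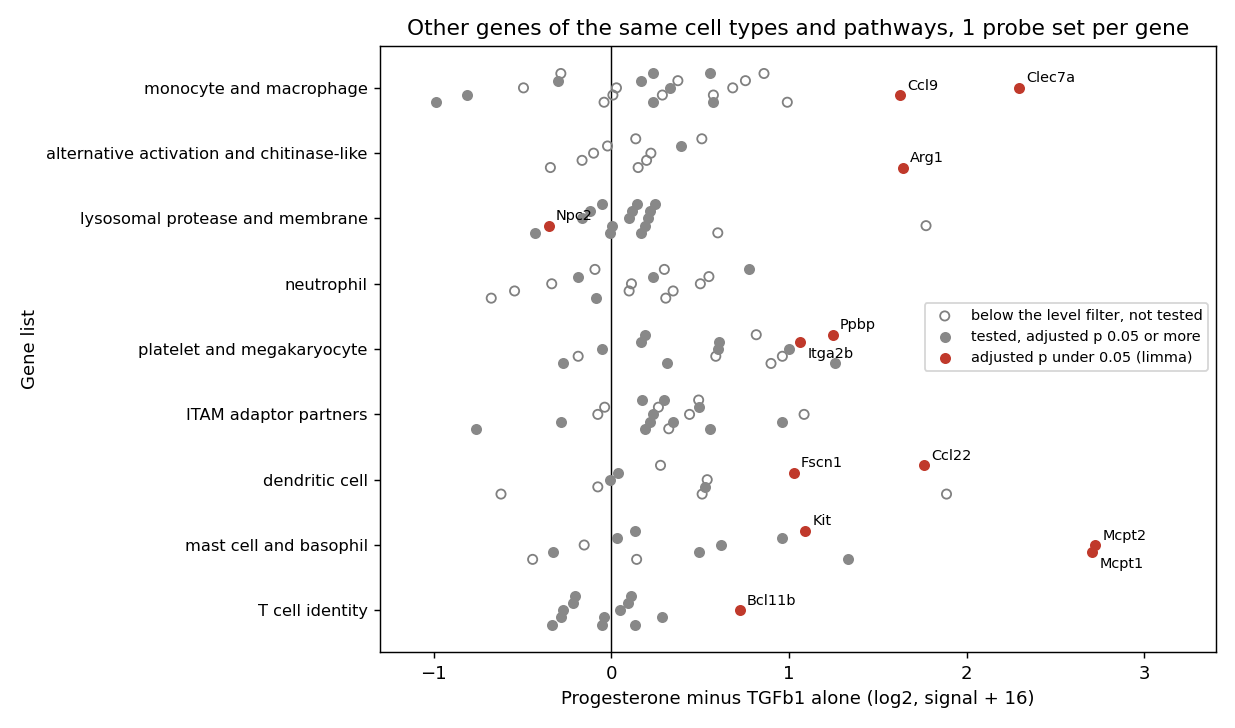
Log2 difference, progesterone minus TGFb1 alone, of each measured gene of 9 lists, with genes past the limma threshold in red, tested genes that did not pass in grey and genes under the level filter as open circles. The labelled red points of the macrophage and platelet lists run from 1.06 (Itga2b) to 2.29 (Clec7a), and the neutrophil and ITAM lists have none.

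Markers of other cell types that a CD4+ culture could hold moved in part with the groups. Mast cell and basophil genes had 3 of 10 tested higher and none lower by limma: the mast cell protease genes Mcpt1 (2.71 ± 0.14, adjusted p = 0.000179) and Mcpt2 (2.72 ± 0.20, adjusted p = 0.00108) and the growth factor receptor gene Kit (1.09 ± 0.17, adjusted p = 0.00958, and 0.98, not passing, without progesterone replicate 2). In this list 7 of the 10 tested were higher and none lower at an unadjusted p under 0.05 (limma). The mast cell list's quantile-normalised sum was 2639 and 2115 with TGFb1 alone and 6323 and 8786 with progesterone. As deposited it was 3009 and 2250 against 6178 and 6623. Mcpt1 had 570.9 and 497.3 against 2674 and 2771, while TGFb1 replicate 2 was the lowest array in 7 of the 10 tested genes of the list. Dendritic cell genes had 2 of 5 tested higher, the chemokine gene Ccl22 (1.76 ± 0.26, adjusted p = 0.00832, and 1.52, not passing, without progesterone replicate 2) and the actin-bundling gene Fscn1 (1.03 ± 0.23, adjusted p = 0.0428, and 0.72, not passing, without TGFb1 replicate 2). Fscn1 also did not pass without progesterone replicate 1 (1.03) or replicate 2 (1.07), and the brightest of that list, Cst3, was at -0.01 ± 0.09 (adjusted p = 0.974). The quantile-normalised dendritic sum was 1459 and 1360 against 1634 and 1612, and the deposited sums, 1688 and 1449 against 1648 and 1270, overlap.

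B cell, natural killer cell, erythroid and CD8 lists had no gene past the limma threshold among 4, 4, 1 and 2 tested, with 2 natural killer genes lower and no other at an unadjusted p under 0.05. Of their brightest genes, Cd79b was at 0.16 ± 0.24 and Cd22 at 0.47 ± 0.25 for B cells, Eomes at -0.76 ± 0.24 and Gzma at 0.30 ± 0.26 for natural killer cells, Epor at 0.53 ± 0.29 and Klf1, below the filter, at 0.08 for erythroid cells and Cd8b1 at -0.31 ± 0.24 for killer T cells. Their quantile-normalised sums were 177.6 and 171.9 against 297.5 and 203.0 for B cells and 667.6 and 644.4 against 469.5 and 483.3 for natural killer cells. For erythroid genes they were 83.0 and 120.3 against 107.9 and 117.7, and for CD8 genes 142.8 and 169.7 against 154.1 and 102.2. In the deposited sums the B cell and natural killer groups kept that order without overlap and the erythroid and CD8 groups overlap. The T cell identity list had 1 of 13 higher, Bcl11b (0.72 ± 0.08, adjusted p = 0.00324; 0.69, not passing, without progesterone replicate 2, and 0.30, not passing, unscaled), and its brightest genes Cd3d and Cd2 at 0.05 ± 0.06 and -0.21 ± 0.06, neither past the threshold. At an unadjusted p under 0.05 (limma), 2 of the 13 T cell genes were higher and 5 were lower. By array order alone, 5 were higher without overlap and 5 were lower. The quantile-normalised sums of the T cell list were 40782 and 43153 against 41303 and 42242. Its deposited sums were 48812 and 46272 against 40042 and 31985. The part of any of these cell types in the values of the 10 genes was not tested.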

How the data were processed

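Each of 4 RNA samples (2 per group, grouped by the sample titles) was hybridised to an array of 45101 probe sets. The authors deposited 1 linear intensity per probe set and array, computed by MAS5 (no version) per the submitters' processing notes. Scaling target and genome build: not given in the sources used here. Detection calls were not analysed here, and the number of arrays limits the precision. The 10 genes and the gene lists were chosen with earlier results of these data known.

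The 64 control probe sets were left out. Trimmed means (2% off each end) differed by 1.43 times, so values were quantile normalised and taken as log2(signal + 16). Probe sets whose mean lay above the median (22518 of them) entered limma 3.58.1 under R 4.3.3 (lmFit, then eBayes with an intensity trend, 2 residual degrees of freedom), with Benjamini-Hochberg adjustment and a threshold of 0.05. The script was tested on simulated data. Every adjusted p comes from this test. The 10 genes were described whether or not they passed the filter (11 of 12 probe sets did).

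Symbols came from the platform annotation, updated through a RefSeq table (GRCm38.p6), which matched 34741 probe sets; 34945 had 1 gene, 932 several and 9160 none. Promoters are RefSeq's. Named beyond the 10 genes were up to 3 called and the 2 brightest genes of each list, Xist, Eif2s3y, Cd3e, Cd4, Cd8a and the nearest profiles. Csf1r, Adgre1, C1qa, Itgam, Cd14 and Chil4 were added after their values were seen. Alternatives were other scalings, pseudocounts, filters, variance models, 1 probe set per gene, the replicate number as a block and leaving out each array.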

Additional observations from a re-analysis of the deposited data

How the results depend on the processing

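All 10 gene differences kept their sign under the scalings, pseudocounts, probe set mean and left-out arrays tried, except Ctss under median centring (-0.0511) and Fcer1g without TGFb1 replicate 2 (-0.0225, in a range up to 0.37 over the left-out arrays). Their median of 1.89 was 2.82 with a pseudocount of 1 and 1.14 with 64, and ran from 1.06 to 2.95 when an array was left out. The 8 genes whose groups did not overlap were 7 as deposited, 9 with a common trimmed mean and 6 with median centring. Of all probe sets, 532 rose and 816 fell; as deposited 282 and 1298, with median centring 267 and 5276, without the filter 176 and 358, without a trend 130 and 351, with 1 probe set per gene 314 and 543, and in the upper 25% by level 449 fell. The median of all tested probe sets was then -0.16 as deposited, -0.28 with median centring and 0.10 with a common trimmed mean, against 0.03. Leaving out an array gave 66 to 721 higher and 257 to 925 lower. The labels give both groups replicate numbers 1 and 2 and do not say whether same-numbered arrays belong together. Such arrays deviated together weakly (r = 0.18 over 22518 probe sets), which does not settle whether they were paired. The replicate block gave 1522 higher and 1630 lower.

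Counts of called list genes were small and moved. For platelet genes 2 higher became 4 as deposited, with a common trimmed mean, with median centring and with the replicate block, 1 with a pseudocount of 1 or no filter, 0 in the upper 25%, and 0 to 2 without an array. For macrophage genes 2 higher became 0 without the filter and in the upper 25% and 1 without a trend (0 to 2 without an array), and 0 lower became 1 as deposited and with the block and 2 with median centring (0 to 2 without an array). For alternative activation 1 higher became 0 with a pseudocount of 1, no filter, the upper 25% or no trend (0 to 1 without an array). For dendritic genes 2 higher became 1 with a pseudocount of 1, no filter or no trend and 0 in the upper 25% (0 to 3 without an array), and median centring gave 1 lower. For mast cell genes 3 higher became 5 as deposited, with either other scaling and with the block (2 to 5 without an array), and median centring gave 1 lower. For lysosomal genes 1 lower became 5 with median centring and 0 as deposited, without filter or without a trend (0 to 1 without an array), with 1 higher without the filter (0 to 1 without an array). For ITAM partners 1 rose with every other scaling, a pseudocount of 64, a robust variance model, 1 probe set per gene and the block (0 to 2 without an array), and 1 fell as deposited and with a common trimmed mean and 2 with median centring and the block (0 to 1 without an array). For natural killer genes 2 fell as deposited, with median centring and with the block (0 to 1 without an array). For T cell genes 1 higher became 0 as deposited, with median centring or without a trend and 2 with the block (0 to 1 without an array), and those lower were 1 as deposited, 3 with a common trimmed mean, 10 with median centring and 4 with the block (0 to 1 without an array). Of the Y-linked genes 3 fell, and 0 in the upper 25%, which they do not reach. The causes were not tested. No detection call was used, so the dim signals, such as 0.916 for S100a9, have no stated limit.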

Other observations

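Genes below the level filter held a few wide gaps that the lists do not count, picked here after their values were seen. Ctsh, a lysosomal protease gene of the same family as Ctss, had deposited signals of 3.85 and 1.24 with TGFb1 alone and 54.2 and 43.5 with progesterone. The chemokine gene Ccl17 had 1.41 and 4.34 against 49.8 and 59.6, and the macrophage gene Ms4a7 had 4.83 and 2.55 against 23.7 and 27.5. The lectin receptor gene Clec4e had 1.28 and 1.99 against 22.6 and 24.4. All these picks were higher with progesterone, but listed genes below the filter went different ways. Of the macrophage list, C1qc had 0.801 and 15.8 against 0.985 and 0.948, and Aif1 had 9.83 and 9.83 against 14.8 and 1.30. Mgl2, of the alternative activation list, had 32.4 and 7.85 against 12.1 and 13.3.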
